A study of Homo sapiens with 14 samples.

Results

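IL6, PTGS2 and a set of NF-kB response genes were followed by RNA polymerase II (RNAPII) chromatin immunoprecipitation and sequencing (ChIP-seq) in fibroblasts. The genes were taken by name: IL6, PTGS2, LIF, NFKBIA, TNFAIP3, NFKB1 and RELB. Of these 7 genes, 6 were measured here among 12425 genes in the deposited table, and LIF was not analysed here. All 6 passed the minimum mean of 1 RPM set for the tests, where RPM is the deposited unit of reads scaled to the total of a library. The cells were BJ hTERT, foreskin fibroblasts made immortal by the catalytic subunit of telomerase, and all libraries came from this 1 established line. Each of the 14 libraries was the single library of its group. Per antibody there were 7: cells at 14 h (marked CTR in the table, with neither DMSO nor ATRi named), and cells given DMSO or ATRi at 16, 19 and 22 h. DMSO is the vehicle and ATRi an inhibitor of ATR, a kinase that responds to stalled replication. The series' own description places the comparison in S phase. The inhibitor, its dose and the event from which the hours count are not given in the sources used here. The antibodies were directed against the N-terminal domain of RPB1, the largest subunit, which reads total RNAPII, and against RPB1 phosphorylated at serine 2 (Ser2), a mark of elongating polymerase.

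NF-kB is a family of dimeric transcription factors held inactive in the cytoplasm by inhibitor proteins. Signals from cytokine receptors, Toll-like receptors or DNA damage activate a kinase complex that leads to the loss of the inhibitor and the entry of the dimer into the nucleus. NFKB1 and RELB encode subunits of the family. NFKBIA encodes the inhibitor IkB alpha and TNFAIP3 the ubiquitin-editing enzyme A20, and both are induced by NF-kB and restrain it in turn. IL6, a secreted cytokine, and PTGS2, the inducible cyclooxygenase of prostaglandin synthesis, are outputs of the pathway in activated fibroblasts.

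The promoters are shown because a known route to these genes runs through NF-kB binding near the start of transcription. RefSeq promoter entries (GRCh38.p14) matched 5 of the 6 genes, with none printed for RELB. Each sequence below is the 250 bases before the annotated start, 5′ to 3′ on the strand of the gene. Capitals mark every match to the kB consensus on either strand, except in PTGS2, where they mark the overlapping matches to the looser pattern GGGNNNNNCC. The windows lie at chr7:22726950-22727199 (plus strand), chr1:186680424-186680673 (minus strand), chr14:35404750-35404999 (minus strand), chr6:137867009-137867258 (plus strand) and chr4:102501109-102501358 (plus strand, the first of 2 NFKB1 entries).
IL6: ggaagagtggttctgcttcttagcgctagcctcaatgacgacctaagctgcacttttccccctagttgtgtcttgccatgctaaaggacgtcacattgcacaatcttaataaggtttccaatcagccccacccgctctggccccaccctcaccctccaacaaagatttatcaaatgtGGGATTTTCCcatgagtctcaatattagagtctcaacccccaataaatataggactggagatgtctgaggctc
PTGS2: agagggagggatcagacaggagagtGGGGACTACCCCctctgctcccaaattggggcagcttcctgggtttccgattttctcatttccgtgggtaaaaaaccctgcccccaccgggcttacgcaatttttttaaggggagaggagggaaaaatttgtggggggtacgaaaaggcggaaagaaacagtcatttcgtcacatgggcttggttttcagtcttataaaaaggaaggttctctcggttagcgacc
NFKBIA: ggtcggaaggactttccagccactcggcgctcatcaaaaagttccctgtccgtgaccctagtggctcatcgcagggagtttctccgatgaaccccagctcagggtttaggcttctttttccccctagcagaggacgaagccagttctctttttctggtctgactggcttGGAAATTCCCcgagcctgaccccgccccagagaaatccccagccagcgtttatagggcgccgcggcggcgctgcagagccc
TNFAIP3: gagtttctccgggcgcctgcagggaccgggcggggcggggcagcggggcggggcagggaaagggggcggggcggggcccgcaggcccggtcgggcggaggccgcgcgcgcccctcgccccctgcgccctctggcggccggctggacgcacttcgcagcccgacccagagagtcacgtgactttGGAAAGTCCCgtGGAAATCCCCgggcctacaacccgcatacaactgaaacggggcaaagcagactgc
NFKB1: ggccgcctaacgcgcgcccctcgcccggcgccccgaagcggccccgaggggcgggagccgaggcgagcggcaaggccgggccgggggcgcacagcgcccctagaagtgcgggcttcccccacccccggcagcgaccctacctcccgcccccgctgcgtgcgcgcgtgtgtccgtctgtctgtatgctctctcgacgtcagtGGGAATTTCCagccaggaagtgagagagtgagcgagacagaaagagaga

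The kB consensus was found in IL6 (bases 73 to 64 before the start), NFKBIA (81 to 72), TNFAIP3 (67 to 58 and 55 to 46) and the first NFKB1 entry (49 to 40). Read on the strand of the match, the 10 bases were GGGATTTTCC in IL6, GGGAATTTCC in both NFKBIA and NFKB1, and GGGACTTTCC and GGGGATTTCC in TNFAIP3. The NFKBIA and TNFAIP3 matches lie on the strand opposite to the gene. The second NFKB1 entry, at chr4:102501684-102501933, held no match to the consensus. Of 35116 RefSeq promoter windows of 250 bases, 9.96% held the consensus. The PTGS2 window held no such match; it held GGGNNNNNCC, which contains the consensus as a special case, between bases 225 and 214 before the start, and so did 54.4% of all windows. The sequence TATAAA was present in PTGS2 (32 to 27 before the start) and, on the opposite strand, in NFKBIA (33 to 28), against 10.7% of all windows. The AP-1 consensus TGANTCA, held by 6.57% of windows, was in none of the 5, which says only that these letters are not in these stretches. These matches describe letters, and no factor binding was measured. The genes were taken by name as NF-kB response genes, so kB matches in their promoters are not a separate finding. The windows of IL6, TNFAIP3 and NFKB1 fall wholly or partly inside the spans over which reads were summed, and that of PTGS2 overlaps its span at the edge.

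Signal was summed over the whole span of a gene. On hg38 these spans were chromosome 7, 22725884 to 22732002 for IL6, chromosome 1, 186671791 to 186680427 for PTGS2, chromosome 14, 35401511 to 35404749 for NFKBIA, chromosome 6, 137867188 to 137883312 for TNFAIP3, chromosome 4, 102501329 to 102617302 for NFKB1, and chromosome 19, 45001430 to 45038198 for RELB. ChIP-seq does not mark the strand of transcription. IL6 shares 28.4% of its span with IL6-AS1, TNFAIP3 6.49% with WAKMAR2, and NFKB1 23.3% with NFKB1-AS1 and other transcripts, so their reads cannot be told apart there. PTGS2 and NFKBIA overlap no RefSeq gene, and CLASRP lies 842 bp from RELB.

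The libraries held 17181179 to 62368915 reads, and the 6 genes held 143 to 6610 reads each in a library. In the 4 libraries of 19 h, 63.5 to 72.0% of reads lay in the listed nuclear genes, against 35.8 to 57.4% in the other 10. Most genes were higher in RPM at 19 h, and the changes below are set beside that of the median gene. Fibroblast markers were in the table for 9 of 9 genes, with a summed signal of 709 to 2185 RPM. Of the other lists, 0 of 8 macrophage and 0 of 4 lymphocyte markers were matched, 1 of 5 keratinocyte markers (KRT14, 0.236 to 1.18 RPM) and 2 of 5 endothelial markers (VWF and TEK, summed 27.9 to 87.7 RPM). Their part in the results was not tested. In a bulk culture, more polymerase on a gene in each cell and more cells using the gene cannot be told apart.

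All 6 genes carried most RNAPII at 19 h, in both antibodies and in both treatments. On the deposited scale both 19 h libraries lay above the other 5 libraries of the same antibody for 6 of 6 genes in total RNAPII and 6 of 6 in Ser2. This alone sets them apart little: 80.7% of 12000 genes did so in total RNAPII and 87% in Ser2. After the median gene of each library was subtracted, it held for 5 of 6 in total RNAPII (all but NFKBIA), where 29.4% of genes did so, and for 6 of 6 in Ser2, where 36.7% did so. What was large was the size of the step for IL6, PTGS2 and RELB, which ranked above the 99th percentile of all genes tested in both antibodies.

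**Figure D1:**
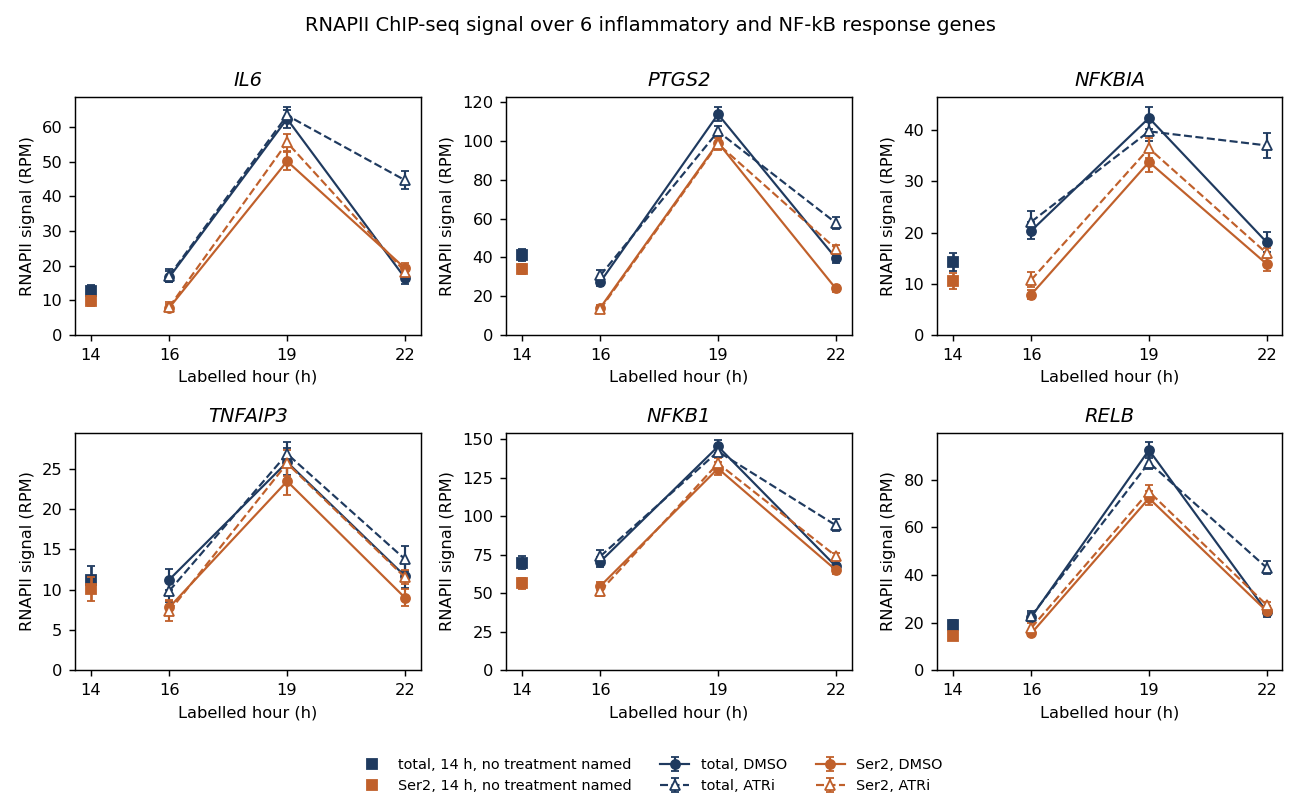
RNAPII signal in RPM (vertical axis) against the labelled hour (horizontal axis) for each of the 6 genes, 1 library per point, in total RNAPII (blue) and Ser2 (orange), with DMSO as filled circles and solid lines, ATRi as open triangles and dashed lines, and the 14 h CTR libraries as squares. Bars are exact Poisson 95% intervals for counting error only; every curve peaks at 19 h, and at 22 h the total RNAPII signal of IL6 was 44.7 RPM in ATRi against 16.5 RPM in DMSO.

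IL6 held 12.6 RPM of total RNAPII at 14 h; the DMSO libraries of 16, 19 and 22 h held 16.7, 62.4 and 16.5 RPM, and the ATRi libraries 17.1, 63.4 and 44.7 RPM. Its Ser2 signal was 9.70 RPM at 14 h, then 7.87, 50.2 and 19.3 RPM in DMSO and 8.09, 55.6 and 18.3 RPM in ATRi. The 19 h libraries stood far above the rest, and the 22 h ATRi library of total RNAPII stood between the 19 h level and the others. Counting intervals of the 2 treatments overlapped at 16 h with both antibodies, at 19 h in total RNAPII and at 22 h in Ser2. From 16 to 19 h IL6 rose 3.64-fold in total RNAPII, by 1.87 ± 0.28 on the log2 scale (moderated SE, 2 libraries per hour, limma adjusted p = 1.5e-05). In Ser2 it rose 6.29-fold, by 2.65 ± 0.10 (moderated SE, 2 libraries per hour, limma adjusted p = 3.5e-12). The DMSO libraries alone gave 1.87 (total) and 2.60 (Ser2), and the ATRi libraries 1.86 and 2.71. From 19 to 22 h it changed by -1.19 (limma adjusted p = 0.00351) in total RNAPII and -1.47 (2.7e-09) in Ser2. The Ser2 signal at 22 h was still 2.28-fold that at 16 h, a rise of 1.19 ± 0.10 (limma adjusted p = 1.2e-06). In total RNAPII the same change was 0.67 ± 0.28 (limma adjusted p = 1), made of -0.02 among DMSO libraries and 1.36 among ATRi libraries.

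PTGS2 held 41.0 RPM of total RNAPII at 14 h, then 27.3, 113.9 and 39.7 RPM in DMSO at 16, 19 and 22 h, and 30.7, 105.0 and 57.8 RPM in ATRi. Its Ser2 signal was 33.8 RPM at 14 h, then 14.0, 99.2 and 24.0 RPM in DMSO and 13.3, 98.6 and 44.5 RPM in ATRi. PTGS2 was thus lowest at 16 h and above its 16 h level at 14 h, a dip that none of the other 5 genes showed in both antibodies and treatments beyond counting error. From 16 to 19 h it rose 3.73-fold in total RNAPII, by 1.90 ± 0.23 (moderated SE, 2 libraries per hour, limma adjusted p = 3.7e-07). In Ser2 it rose 7.02-fold, by 2.81 ± 0.15 (limma adjusted p = 2.2e-11). It then fell by 1.18 (limma adjusted p = 9.7e-04) and 1.58 (4.4e-08) to 22 h. Against 16 h, the 22 h value was 0.72 ± 0.23 higher in total RNAPII (limma adjusted p = 0.928) and 1.23 ± 0.15 higher in Ser2 (limma adjusted p = 2.6e-05).

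Of the NF-kB subunit genes, RELB had the larger changes and NFKB1 the smaller. RELB held 19.0 RPM of total RNAPII at 14 h, then 22.3, 92.4 and 24.6 RPM in DMSO at 16, 19 and 22 h, and 22.8, 87.2 and 43.0 RPM in ATRi. Its Ser2 signal was 14.2 RPM at 14 h, then 15.5, 72.2 and 24.8 RPM in DMSO and 17.8, 75.0 and 27.4 RPM in ATRi. Its 19 h libraries held over 3 times the signal of 16 h in each antibody. RELB rose by 1.97 ± 0.25 from 16 to 19 h in total RNAPII (3.92-fold, limma adjusted p = 6.9e-07) and by 2.12 ± 0.09 in Ser2 (4.34-fold, limma adjusted p = 5.4e-12). It fell by 1.45 (limma adjusted p = 1.8e-04) and 1.48 (1.5e-09) to 22 h. Relative to the median gene, its total RNAPII change of 1.44 from 16 to 19 h was the largest of the 6 genes. NFKB1 held 70.0 RPM of total RNAPII at 14 h, then 70.5, 145.4 and 67.6 RPM in DMSO at the later hours, and 74.0, 142.0 and 94.2 RPM in ATRi. Its Ser2 signal was 56.5 RPM at 14 h, then 54.7, 131.1 and 65.2 RPM in DMSO and 51.5, 134.3 and 74.2 RPM in ATRi. The 19 h libraries of NFKB1 lay above all others in both antibodies. Its changes were 0.99 ± 0.22 in total RNAPII (limma adjusted p = 0.00218) and 1.31 ± 0.09 in Ser2 (limma adjusted p = 1.4e-10), which is 0.45 and 0.42 above the median gene.

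The genes of the inhibitors rose too, with smaller estimates than IL6, PTGS2 and RELB; differences between genes were not tested. NFKBIA held 14.2 RPM of total RNAPII at 14 h, then 20.4, 42.4 and 18.1 RPM in DMSO at 16, 19 and 22 h, and 22.1, 39.8 and 37.0 RPM in ATRi. Its Ser2 signal was 10.5 RPM at 14 h, then 7.89, 33.8 and 13.8 RPM in DMSO and 10.7, 36.5 and 16.0 RPM in ATRi. The 22 h ATRi library of total RNAPII stood near the 19 h level, with counting intervals that overlap between its 37.0 RPM and the 39.8 RPM of 19 h ATRi, while in Ser2 the 22 h ATRi library stood far below 19 h. NFKBIA rose by 0.94 ± 0.27 from 16 to 19 h in total RNAPII (limma adjusted p = 0.0107) and by 1.87 ± 0.11 in Ser2 (limma adjusted p = 2.7e-11). TNFAIP3 held 11.2 RPM of total RNAPII at 14 h, then 11.3, 25.8 and 11.7 RPM in DMSO at the later hours, and 9.86, 26.8 and 13.8 RPM in ATRi. Its Ser2 signal was 10.0 RPM at 14 h, then 7.81, 23.4 and 9.01 RPM in DMSO and 7.32, 25.7 and 11.5 RPM in ATRi. Outside 19 h the TNFAIP3 libraries ranged from 9.86 to 13.8 RPM in total RNAPII and from 7.32 to 11.5 RPM in Ser2, all far below 19 h. It rose by 1.28 ± 0.28 in total RNAPII (limma adjusted p = 0.00167) and by 1.63 ± 0.12 in Ser2 (limma adjusted p = 2.1e-10).

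Taken as a count, 6 of 6 genes rose from 16 to 19 h in total RNAPII by limma, where 39.8% of 12031 genes did, and 6 of 6 in Ser2, where 85.9% of 11989 did (2.35 and 5.67% fell). The median of the 6 changes was 1.57 against 0.54 for all genes in total RNAPII, and 2.00 against 0.90 in Ser2. With each library centred on the median gene, 5 of 6 were called in total RNAPII (background 3.75% higher and 6.35% lower; NFKBIA at 0.46, limma adjusted p = 0.108) and 6 of 6 in Ser2 (background 35.4% higher and 31.4% lower). On the recovered reads, edgeR called 5 in total RNAPII (all but NFKBIA; background 3.15%) and DESeq2 4 (all but NFKBIA and NFKB1; 2.88%), and both called 6 in Ser2 (33.3 and 24.8%). With the trend of each library with read density removed, 6 of 6 were called in both (backgrounds 9.99% and 18.3%). IL6 was then at 1.15 and 1.20, PTGS2 at 1.20 and 1.34, and RELB at 1.33 and 1.00. TNFAIP3 was at 0.67 and 0.57, NFKB1 at 0.43 and 0.38, and NFKBIA at 0.26 and 0.38. For NFKBIA these were the 87.1 and 91.7 percentile, against 93.1 and 98.8 with the trend kept. RELB in Ser2 was then at the 98.3 percentile, against 99.6 with the trend kept, and IL6 in Ser2 at 99.1, against 99.9. The total RNAPII calls rest on few libraries. Without the 16 h ATRi library 0 of 6 were called (PTGS2 at 1.88, limma adjusted p = 0.0831, the lowest), and 2 of 12032 genes were called higher (0.0166%). Without the 16 h DMSO library 3 were called (IL6, PTGS2 and RELB; background 0.133%), without the 19 h DMSO library 2 (PTGS2 and RELB; 0.141%), and without the 19 h ATRi library 4 (all but NFKBIA and TNFAIP3; 7%). No direction changed in these fits. For Ser2, where 85.9% of all genes were called with every library, the share without 1 library is not given here. Ser2 counts without 1 library are therefore not read as a result about the 6 genes. The hour cannot be told apart from anything else that the libraries of an hour shared, and the p-values measure only the spread between these libraries.

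**Figure D2:**
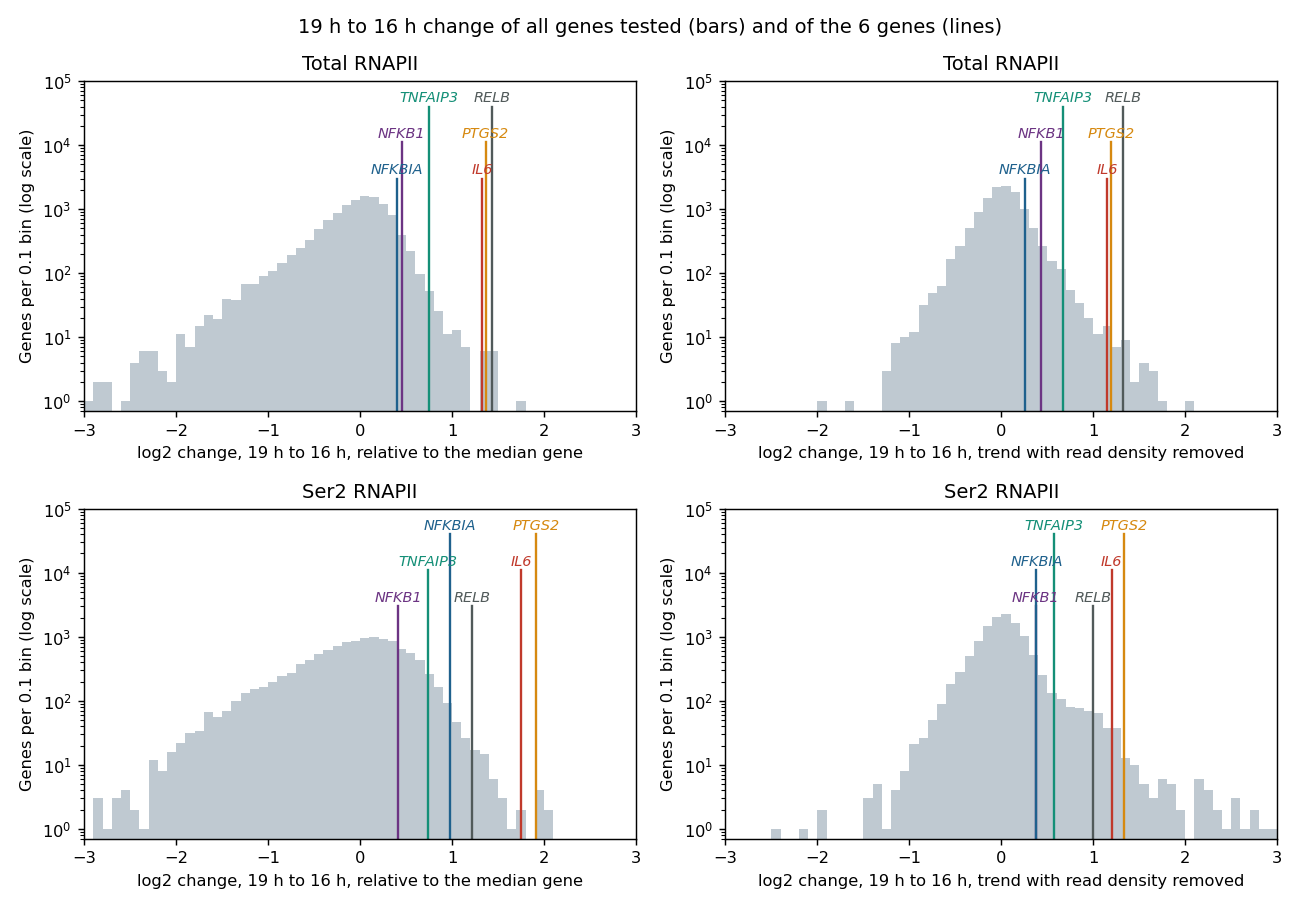
Number of genes (vertical axis, log scale) by their log2 change from 16 to 19 h (horizontal axis, bins of 0.1) for all genes tested in total RNAPII (top) and Ser2 (bottom), relative to the median gene (left) and with the trend with read density removed (right). Coloured lines mark the 6 genes and their heights carry no value; IL6, PTGS2 and RELB lie in the right-hand tail in all 4 panels, while NFKB1 and NFKBIA lie nearer the body.

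From 19 to 22 h, 6 of 6 genes fell in total RNAPII (56.6% of genes did, and 2.45% rose) and 6 of 6 in Ser2 (84.3%, and 5.01% rose). Their median change was -1.10 against -0.62 for all genes in total RNAPII, and -1.35 against -0.68 in Ser2. With median centring 2 of 6, PTGS2 and RELB, were called in total RNAPII (background 1.17%) and 6 of 6 in Ser2 (background 27.7% lower and 24.2% higher). edgeR and DESeq2 called the same 2 in total RNAPII (backgrounds 1.1 and 1.17%) and 6 in Ser2 (23 and 13.6%). With the density trend removed the counts were 2 (NFKB1 and RELB; 5.72%) and 5 (all but NFKBIA; 11.3%). The total RNAPII count was 0 without the 19 h DMSO library, where 0% of all genes were called lower (limma; unadjusted p under 0.05 for 518). It was 1 (RELB) without the 16 h DMSO library (background 0.183%) and without the 16 h ATRi library (0.133%). Between the DMSO libraries IL6 changed by -1.89 and RELB by -1.89, against -0.91 for the median gene. Between the ATRi libraries they changed by -0.50 and -1.01, against -0.33, and NFKBIA by -0.10.

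Between 16 and 22 h the antibodies gave different counts. In total RNAPII 0 of 6 genes were called by limma (0% of all genes; unadjusted p under 0.05 for 72 higher and 283 lower), although IL6, PTGS2 and RELB ranked at the 99.8, 99.9 and 99.5 percentile. edgeR called 0 genes too (unadjusted p under 0.05 for 395 higher and 576 lower). Of the 6 genes, DESeq2 called PTGS2 alone (0.81, DESeq2 adjusted p = 0.00258; background 0.208% higher). Removing the density trend gave 4 calls (IL6, PTGS2, NFKBIA and RELB; background 4.01%). Leaving out the 22 h DMSO library gave 4 calls (IL6, PTGS2, NFKBIA and RELB; background 3.33%), and leaving out the 22 h ATRi library 1 (PTGS2; 0.848%). In Ser2 all 6 were called higher (39% of genes were): IL6 by 1.19, PTGS2 by 1.23, NFKBIA by 0.66, RELB by 0.64, TNFAIP3 by 0.41 and NFKB1 by 0.39, with the median gene at 0.21. With centring 4 of 6 were called (background 10.2% higher and 10.5% lower; not TNFAIP3 or NFKB1), with edgeR and DESeq2 4 each (8.79 and 5.2%), and with the density trend removed 3 (IL6, PTGS2 and RELB; background 5.06%). The difference between the antibodies was not tested.

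The comparison of ATRi with DMSO over the 3 hours asked whether ATR inhibition shifted RNAPII on these genes alike at each hour. It called 0 of 6 genes in total RNAPII and 0 of 6 in Ser2, and 0% of all genes in either (limma; unadjusted p under 0.05 for 204 higher and 0 lower in total RNAPII, 2630 and 25 in Ser2). edgeR and DESeq2 called 0 genes as well, and in Ser2 DESeq2 gave 10692 genes no adjusted p. Mean changes in total RNAPII were 0.49 ± 0.23 for IL6, 0.35 ± 0.22 for NFKBIA, 0.25 ± 0.20 for RELB, 0.20 ± 0.19 for PTGS2, 0.17 ± 0.18 for NFKB1 and 0.03 ± 0.23 for TNFAIP3 (moderated SE, 3 pairs), against 0.18 for the median gene. In Ser2 they were 0.27 ± 0.12 for PTGS2, 0.24 ± 0.09 for NFKBIA and 0.04 to 0.13 for the others, against 0.10. An exact sign-flip test over 3 hours cannot go below p = 0.25 (two-sided). Signs also differed: in total RNAPII IL6 alone was higher in ATRi at all 3 hours (17.9% of genes were), and in Ser2 NFKBIA and RELB were (42.6%). Relative to the median gene of each hour, 0 of 6 were in total RNAPII (8.62% of genes) and NFKBIA alone in Ser2 (13.1%).

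In total RNAPII, ATRi and DMSO libraries lay furthest apart at 22 h for each of the 6 genes. There the total RNAPII ratio of ATRi to DMSO for IL6 was 1.41 on the log2 scale (counting interval 1.25 to 1.63, 1070 reads against 310), where the median gene had 0.50. At 16 and 19 h it was 0.04 and 0.02. In Ser2 the 22 h ratio of IL6 was -0.07 (interval -0.22 to 0.07), where the median gene had 0.16. The higher IL6 value at 22 h was thus seen with 1 antibody, in 1 pair of libraries. The difference in ATRi effect between Ser2 and total RNAPII over the 3 hours was -0.45 ± 0.33 for IL6 (limma adjusted p = 1). No gene of the 6 was called for this difference (0% of 12013 genes; unadjusted p under 0.05 for 4 higher and 5 lower), and without 22 h that of IL6 was 0.06.

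NFKBIA and RELB also had ratios above the median gene in total RNAPII at 22 h, at 1.01 (interval 0.85 to 1.22) and 0.79 (0.65 to 0.97), against 0.20 and 0.14 in Ser2. Among all genes the total RNAPII ratio of NFKBIA lay at the 96.3 percentile, and that of RELB only at the 80.65 percentile. In Ser2 NFKBIA had its highest ratio at 16 h instead, 0.42 (interval 0.18 to 0.70, the 94.5 percentile), and RELB likewise at 0.19. PTGS2 behaved the other way: its 22 h ratio was 0.54 in total RNAPII, near the median gene, and 0.88 (0.78 to 1.01) in Ser2, the 99.9 percentile. At 16 and 19 h PTGS2 had 0.16 and -0.12 in total RNAPII and -0.07 and -0.01 in Ser2. Its Ser2 mean over the hours was called without the 16 h libraries (0.44, limma adjusted p = 0.0128; background 0.316%) and without the 19 h libraries (0.40, limma adjusted p = 0.0129; background 7.09%), and was -0.04 without 22 h. NFKB1 at 22 h followed the median gene, at 0.48 and 0.19. TNFAIP3 had 0.23 and 0.34. At 22 h the ATRi libraries also held more of their reads in genes than the DMSO libraries, 57.4 against 42.8% in total RNAPII and 44.3 against 40% in Ser2, and the part of this in the gene values was not tested. With 1 library per group, these 22 h ratios carry no replicate error.

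**Figure D3:**
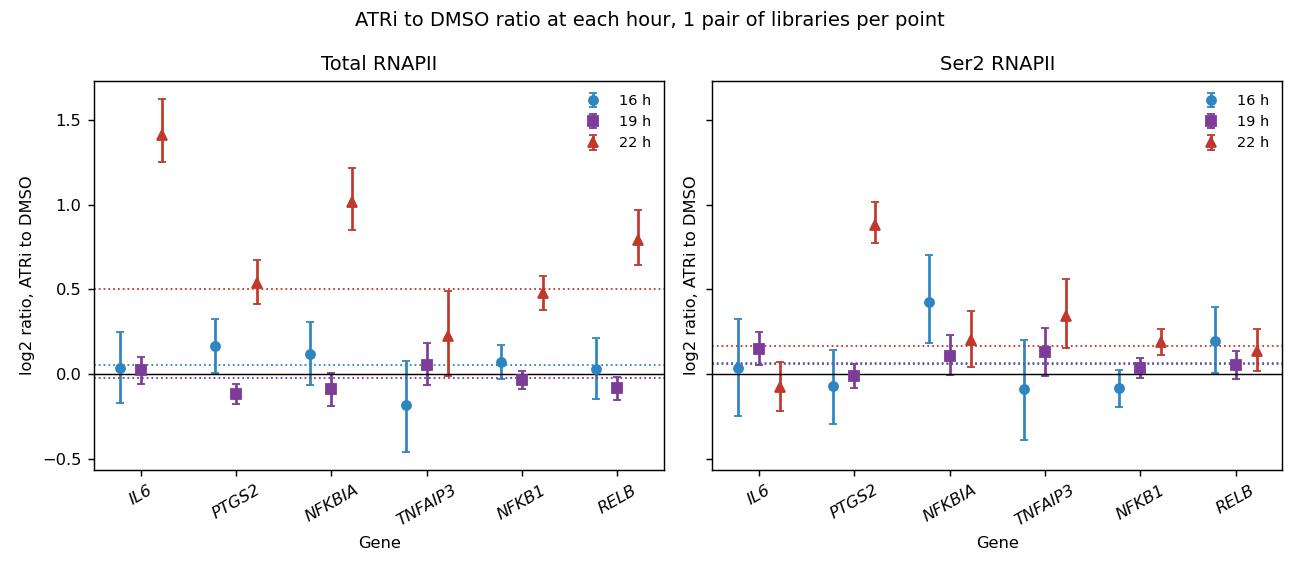
Log2 ratio of ATRi to DMSO (vertical axis) for each gene (horizontal axis) at 16 h (circles), 19 h (squares) and 22 h (triangles), in total RNAPII (left) and Ser2 (right), 1 pair of libraries per point. Bars are exact 95% intervals for counting error and dotted lines mark the median gene of each hour in the same colour; the 22 h points of IL6 (1.41), NFKBIA (1.01) and RELB (0.79) lie highest in total RNAPII, and that of PTGS2 (0.88) in Ser2.

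The Ser2 to total ratio within a group was taken from the same libraries. Its difference between treatments at 22 h restates the difference between antibodies given above and is not a second observation. At 19 h all 6 genes lay within 0.14 of the median gene on the log2 scale in both treatments. At 22 h with ATRi, IL6 lay at -0.80 and NFKBIA at -0.73 relative to the median gene, the 0.667 and 1.19 percentile, while PTGS2 lay at 0.09. At 22 h with DMSO, IL6 lay at 0.34, the 98.3 percentile, and PTGS2 at -0.59, the 0.717 percentile. So the order of IL6 and PTGS2 turned between the treatments at this hour. At 16 h PTGS2, IL6 and NFKBIA lay below the median gene in both treatments, at -0.34 to -0.71, and TNFAIP3, NFKB1 and RELB above it, at 0.08 to 0.25. These ratios compare separate immunoprecipitations, so only their size relative to other genes was read.

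**Figure D4:**
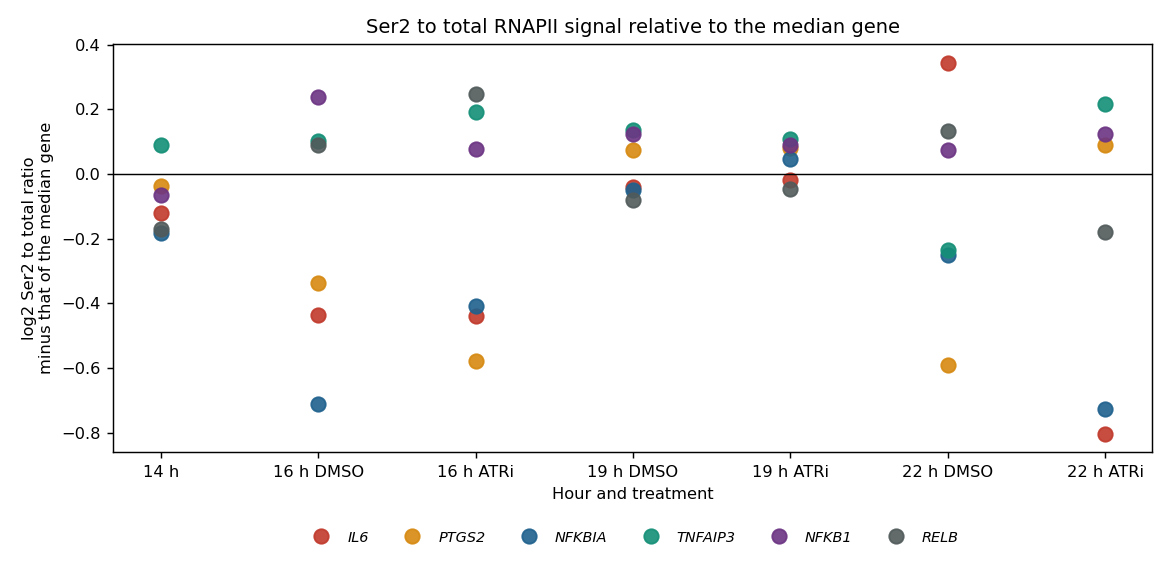
Log2 Ser2 to total RNAPII ratio of each gene minus that of the median gene (vertical axis) in the 7 groups of hour and treatment (horizontal axis), 1 pair of libraries per point. The 6 genes lie close together at 19 h and spread at 16 and 22 h, with IL6 at 0.34 in the 22 h DMSO pair and -0.80 in the 22 h ATRi pair.

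The step from 14 to 16 h is a description, since the 14 h libraries carry no DMSO or ATRi label. PTGS2 changed by -0.58 (DMSO) and -0.41 (ATRi) in total RNAPII and by -1.24 and -1.31 in Ser2, no higher than the 0.7 percentile of genes in any of the 4. IL6 changed by 0.40 and 0.43 in total RNAPII, where the median gene changed by 0.26 and 0.32, and by -0.29 and -0.25 in Ser2, where the second interval (-0.58 to 0.06) includes 0. NFKBIA had 0.50 and 0.62 in total RNAPII, TNFAIP3 0.01 and -0.17, NFKB1 0.01 and 0.08, and RELB 0.22 and 0.25. In Ser2 TNFAIP3 had -0.34 and -0.43, with both counting intervals below 0, and NFKBIA -0.39 and 0.04. NFKB1 had -0.05 and -0.13 in Ser2, and RELB 0.12 and 0.31.

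Per kilobase of gene span the genes formed 2 tiers. PTGS2, NFKBIA and IL6 held the 3 highest densities of the 6 in all 14 libraries, each above the 90th percentile of all genes. They also had the 3 shortest spans, 8637, 3239 and 6119 bp. TNFAIP3, NFKB1 and RELB had 16125, 115974 and 36769 bp. The part of span length in these tiers was not tested. PTGS2 ranged from 3.16 to 13.2 RPM per kb in total RNAPII, NFKBIA from 4.38 to 13.1 and IL6 from 2.05 to 10.4. NFKBIA was denser than IL6 in 14 of 14 libraries, while PTGS2 and NFKBIA changed places. TNFAIP3, NFKB1 and RELB lay far lower, at 0.611 to 1.66, 0.583 to 1.25 and 0.518 to 2.51 RPM per kb, against a median gene of 0.602 to 1.16. RELB moved from the 37.5 to the 78.1 percentile of density, and it was the lowest of the 6 at 14 h in both antibodies and the highest of this tier at 19 h in all 4 libraries. Over the 7 libraries of an antibody the level relative to the median gene varied most for IL6, PTGS2 and RELB: its SD was 0.70, 0.58 and 0.66 in total RNAPII and 0.79, 0.83 and 0.61 in Ser2, where the median gene had 0.19 and 0.20. For NFKB1 it was 0.21 in both.

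Other genes of the pathway were counted by limma on lists, for which no test of the list itself was run. The share of all genes called from 16 to 19 h, against which each list is read, was 39.8% higher and 2.35% lower in total RNAPII (3.75 and 6.35% with median centring) and 85.9% higher and 5.67% lower in Ser2 (35.4 and 31.4%). Of 10 further NF-kB subunit and inhibitor genes tested (11 listed), 5 rose from 16 to 19 h in total RNAPII and 0 fell, 4 of them also with median centring, and in Ser2 10 rose (6 higher and 1 lower with centring). The list median was 0.79 against 0.54 for all genes in total RNAPII and 1.35 against 0.90 in Ser2. NFKB2, the partner of RELB, rose by 1.86 (limma adjusted p = 1.1e-05) and 2.14 (1.0e-11). NFKBIE, a further IkB inhibitor, rose by 1.56 in total RNAPII, TNIP1, which binds A20, by 1.19 and 1.64, the atypical IkB gene NFKBIZ by 0.99 and 1.75, and the subunit gene RELA by 1.61 in Ser2. From 16 to 22 h 6 of 10 rose in Ser2 (4 with centring), where 39% of all genes rose (10.2% with centring), led by NFKBIZ at 0.74, NFKB2 at 0.65, RELA at 0.56 and TNIP2 at 0.48.

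Of 21 genes of upstream receptors and kinases tested (23 listed), 11 rose from 16 to 19 h in total RNAPII (3 with centring) and 21 in Ser2 (10 higher and 5 lower with centring). The list median was 0.75 against 0.54 for all genes in total RNAPII and 0.92 against 0.90 in Ser2. IKBKB, a catalytic kinase of the IkB kinase complex, rose by 1.26 and 1.63, and IKBKG, the regulatory subunit of that complex, by 1.07 and 1.55. TRAF3, a signalling adaptor, rose by 0.98 in total RNAPII, TBK1, a kinase related to the complex, by 1.37 in Ser2, and TLR4, a Toll-like receptor, by 0.96 and 1.36. In Ser2 10 of 21 rose from 16 to 22 h (3 with centring; 39 and 10.2% of all genes), led by IKBKB at 0.65, IKBKG at 0.52, TNFRSF1A, a TNF receptor, at 0.50 and TBK1 at 0.47.

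Of the cytokine, chemokine and other NF-kB target genes, 12 of 29 listed were tested; values for the other genes of the list were not analysed here. In total RNAPII 8 of 12 rose from 16 to 19 h (3 with centring) and in Ser2 12 of 12 (5 with centring), the latter near the shares of all genes. The list median was 0.73 against 0.54 for all genes in total RNAPII and 1.09 against 0.90 in Ser2. TRAF1 rose by 1.65 and 1.43, the apoptosis inhibitor gene BIRC2 by 1.31 and 1.99, BCL2L1, which encodes the survival factor BCL-XL, by 1.15 and 1.56, ICAM1, an adhesion molecule gene, by 1.08 in total RNAPII, and IL11, an IL6 family cytokine gene, by 1.26 in Ser2. From 16 to 22 h 5 of 12 rose in Ser2 (2 higher and 1 lower with centring), again near the 39% of all genes, with BIRC2 at 0.77, BCL2L1 at 0.47, PLAU, the urokinase gene, at 0.45 and TRAF1 at 0.44.

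Of 13 IL6 family receptor and signalling genes tested (16 listed), 6 rose and 1 fell from 16 to 19 h in total RNAPII, with 0 higher and 3 lower after centring. The 6 are near the 39.8% of all genes, and the list median of 0.37 was below the 0.54 of all genes. IL6ST, the shared receptor gp130, rose by 0.90 and 1.45, the kinase gene TYK2 by 0.81 and 1.18 and STAT3, the transcription factor downstream, by 0.81 and 1.17, while PIM1, a kinase gene, fell by 0.96 in total RNAPII. In Ser2 10 rose and 1, the receptor gene LIFR, fell (4 and 4 with centring), against 85.9 and 5.67% of all genes; among the 10 was the oncostatin M receptor gene OSMR at 1.33. From 16 to 22 h 5 of 13 rose in Ser2 (0 higher and 3 lower with centring), with OSMR at 0.42, STAT3 at 0.36, SOCS1, a feedback inhibitor gene, at 0.33 and IL6ST at 0.33. Of the prostaglandin pathway 3 of 13 listed genes were tested, and 3 of 3 rose from 16 to 19 h in each antibody (1 and 2 with centring). PTGS1, the constitutive cyclooxygenase, rose by 1.16 and 1.93, and the prostaglandin E synthase genes PTGES3 by 0.81 and 1.32 and PTGES2 by 0.70 and 0.92. PTGES3 (0.46) and PTGS1 (0.38) also rose from 16 to 22 h in Ser2, where 39% of all genes did. With centring 0 of the 3 were called, where 10.2% of all genes were called higher.

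From 19 to 22 h, where 56.6% of all genes fell in total RNAPII, the lists gave counts on both sides of that share. In total RNAPII 7 of 10 subunit and inhibitor genes, 16 of 21 upstream genes, 9 of 12 targets, 7 of 13 IL6 family genes and 3 of 3 prostaglandin genes fell, and with centring 1, 0, 1, 0 and 1 (1.17% of all genes). With centring 1 upstream gene, TAB2, and 1 IL6 family gene, LIFR, were called higher (5.83% of all genes). The changes farthest from 0 among the called genes of the lists were those of PTGS1 (-1.50), NFKB2 (-1.40), NFKBIE (-1.16), IL11 and TRAF1 (-1.15 each). In Ser2, where 84.3% of all genes fell, the counts were 10 of 10, 20 of 21, 11 of 12, 11 of 13 and 3 of 3, led by PTGS1 (-1.55), NFKB2 (-1.49), TLR4 (-1.25), BIRC2 (-1.23) and IL6ST (-1.12) in their lists. LIFR was higher, by 0.45. With centring the Ser2 counts of the lists, in the same order, were 6, 7, 7, 5 and 2 lower (27.7% of all genes). Called higher with centring were 1, 3, 0, 3 and 0 (24.2% of all genes). Under ATRi 0 genes of any of the 5 lists were called in either antibody. The 2 densest genes of each list had the following mean ATRi changes in total RNAPII and Ser2, none past the threshold. RELA had 0.34 and 0.23 and NFKB2 0.32 and 0.33. TNFRSF1A had 0.33 and 0.22, and RIPK1, a kinase of TNF receptor signalling, 0.26 and 0.25. IL11 had 0.42 and 0.30, and IRF1, a transcription factor gene, 0.26 and 0.16. The feedback inhibitor genes SOCS1 and SOCS3 had 0.30 and 0.17, and 0.32 and 0.31. PTGS1 had 0.30 and 0.28 and PTGES3 0.22 and 0.20. The median gene had 0.18 and 0.10.

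The genes whose pattern over the 14 libraries was most like that of IL6, PTGS2 or NFKBIA were ranked among 10508 named genes by Pearson's r, after subtraction of each library's median gene and of each gene's mean within an antibody. Nearest to IL6 were NID2 (r = 0.99), the basement membrane gene nidogen 2, SAE1 (0.99), a subunit of the SUMO-activating enzyme, and PGAM1 (0.98), a glycolytic enzyme. Nearest to PTGS2 were ACSL4 (0.98), an acyl-CoA synthetase that acts on arachidonic acid, the collagenase gene MMP1 (0.97) and SEC24A (0.97), a coat protein gene of transport vesicles. Nearest to NFKBIA were POFUT4, ETS1, a transcription factor gene, and ZBTB38 (0.98 each). At 22 h MMP1 was like PTGS2 in Ser2 only. There MMP1 held 15.2 (DMSO) and 40.5 (ATRi) RPM, and PTGS2 24.0 and 44.5. In total RNAPII MMP1 was nearly level, at 32.3 and 33.3 RPM, where PTGS2 held 39.7 and 57.8. Among the 6 genes, IL6 was most like RELB and NFKBIA (0.95 each), at ranks 117 and 134 of the genes compared. PTGS2 was most like TNFAIP3 (0.91, rank 128). IL6 and PTGS2 had 0.82, with PTGS2 at rank 1810 from IL6. NFKBIA and TNFAIP3 had 0.66, with TNFAIP3 at rank 3148 from NFKBIA. Many genes outside the 6 were thus nearer than these. The 14 points are single libraries that share antibody, hour and read share in genes, so these values are descriptions.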

How the data were processed

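RNAPII ChIP-seq signal of 14 libraries was analysed from the table the authors deposited, which gives RPM, reads over each gene span scaled to the library total and left undivided by span length. The submitters' processing notes name Bowtie2 2.3.3.1, SAMtools 1.4 and hg38; the counting step, the annotation, and any use of input or spike-in are not given in the sources used here. Per the labels, the extraction text names antibodies against histones only, and the antibody entries, which name RPB1, were followed. Of all deposited RPM values, 100% were whole multiples of 1 read (tolerance 0.01), so read counts and library totals (17181179 to 62368915) were recovered; in the Ser2 22 h ATRi library the smallest value corresponded to 2 reads. The floor of 3 reads was worth 0.0481 to 0.175 RPM.

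Symbols were assigned by position against RefSeq (GRCh38.p14), which named 10729 genes (86.4%): spans had to share at least 0.8 of their union, or 0.5 with 1 end no more than 100 bp away. The 14 mitochondrial genes were left out. Two-sided tests were limma's moderated fits (version 3.58.1, trend on, R 4.3.3) to log2(RPM + 0.5) of genes averaging 1 RPM or more, with Benjamini-Hochberg adjustment over all genes tested and a threshold of 0.05. The log2 changes are on this scale, which understates the change of low genes. ATRi was tested within each antibody over 6 libraries with hour as a block, the difference between antibodies over 12 libraries with antibody-by-hour blocks, and hours with treatment as a term, so that the 2 libraries of an hour, DMSO and ATRi, took the place of replicates. The 3 hour contrasts share libraries. Nothing in the labels says that libraries came from separate cultures, so p-values may measure technical spread. With 1 library per group, the residual of these fits also holds any difference of the ATRi effect between hours. An ATRi effect at 1 hour alone is therefore counted as error in both the ATRi and the hour tests. Intervals of single libraries are exact Poisson and those of ratios exact binomial (95%); they cover counting error only, since reads carry no molecular identifiers. Alternatives were pseudocounts of 0.1 and 1 RPM, no filter, median centring, edgeR 4.0.16 (TMM) and DESeq2 1.42.0 on recovered reads, and leaving out hours or libraries; removal of each library's loess trend with read density was chosen after seeing the data. The fits were tested on simulated data.

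The members and the gene lists were chosen with earlier results of these data known. All listed members are named; of each pathway list, up to 4 genes past the threshold with the largest change are named per comparison, or the 2 densest where none passed, and 3 nearest genes by pattern for IL6, PTGS2 and NFKBIA; MMP1 values were chosen after being seen.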

Additional observations from a re-analysis of the deposited data

How the results depend on the processing

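Each count of the 6 genes was recomputed with the alternatives named above. In the fits with every library, the count for 19 h against 16 h in Ser2 was 6. That for 22 h against 19 h in Ser2 was 6 in these fits, except 5 with the density trend removed. In the main limma fits 85.9 and 84.3% of all genes were called in the same directions. For 19 h against 16 h in total RNAPII the count of 6 held within 1.5 times in all fits with every library, and leaving out 1 library gave 0 to 6. For 22 h against 19 h in total RNAPII it was 2 with median centring, edgeR, DESeq2 and the density trend removed, and 0 to 6 without 1 library; NFKBIA turned to 0.17 with the trend removed. For 22 h against 16 h it was 1 with DESeq2 and 4 with the trend removed in total RNAPII (0 to 4 without 1 library), and 3 with the trend removed in Ser2 (4 to 6 without 1 library). Leaving out 1 library, that total RNAPII change ranged from -0.02 to 1.36 for IL6, -0.22 to 0.78 for NFKBIA and -0.09 to 0.37 for NFKB1, lowest without the 22 h ATRi library and highest without the 22 h DMSO library. For ATRi the counts stayed 0, except for 1 gene, PTGS2, in Ser2 without the 16 h or the 19 h libraries (0 to 1 without 1 hour). The cause was not tested in any of these cases, beyond the fewer libraries of the leave-one-out fits, in which a lone library of an hour is assumed to vary like the others.

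Several ATRi changes near 0, none called, turned sign. In total RNAPII these were TNFAIP3 (-0.14 with centring, -0.12 with edgeR, -0.14 with DESeq2, -0.16 with the trend removed, -0.06 to 0.14 without 1 hour), NFKB1 (-0.00 with centring, -0.01 with DESeq2), PTGS2 (-0.12 with the trend removed) and RELB (-0.03 to 0.41 without 1 hour). In Ser2 they were IL6 (-0.07 with centring, -0.06 with edgeR, -0.08 with DESeq2, -0.20 with the trend removed, -0.02 to 0.09 without 1 hour), NFKB1 (-0.06, -0.05, -0.07 and -0.06 in the same order, -0.02 to 0.11 without 1 hour), NFKBIA and RELB (-0.01 each with the trend removed) and PTGS2 (-0.04 to 0.44 without 1 hour). Without 1 hour, the difference between antibodies ranged from -0.74 to 0.06 for IL6, -0.06 to 0.22 for PTGS2, -0.31 to 0.25 for NFKBIA and -0.26 to 0.15 for RELB, and without 22 h each of these 4 turned sign. The labels give no replicate numbers, and the ATRi tests pair the libraries of an hour through the hour block. The depth limits single ratios of TNFAIP3 most, with 143 reads in its lowest library.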
